A study of Mus musculus with 10 samples.

Results

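Mitochondria carry their own ribosome, which translates the few respiratory chain subunits that the mitochondrial genome encodes. Its RNAs come from mitochondrial DNA, whereas all of its proteins are encoded in the nucleus, made in the cytosol and imported; most genes named Mrpl encode proteins of the large subunit and most named Mrps proteins of the small subunit. The names are historical: Mrps18a and Mrps30 encode proteins of the large subunit, and Mrps36 a subunit of 2-oxoglutarate dehydrogenase. Genes are grouped here by name. This ribosome is needed for oxidative phosphorylation, the main route to ATP in most cells, which burns pyruvate from glycolysis along with other fuels. The genes described here were those whose symbol was Mrpl or Mrps followed by digits and at most one of the letters a, b or c, which gave 76 of the 39017 genes in the count table: 47 Mrpl and 29 Mrps genes. Pseudogenes with a suffix did not match, and no measured value entered the choice.

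RNA was sequenced from lung tumors of mice in which Cre, delivered into the airway by an adenovirus with the CC10 (club cell) promoter (Ad5CC10-Cre), activated K-ras LSL-G12D/WT and deleted p53 Fl/Fl in every animal (KP). The 5 Glut1KO libraries came from mice labelled homozygous fl/fl for Glut1 (KPG1), and the 5 Control libraries from mice labelled heterozygous fl/wt, although the design text calls the controls wild type. All were of the C57BL/6 strain, and tumors were macrodissected 20 weeks and 1 day after initiation, dissociated and depleted of CD45-positive immune cells. The comparison asks what loss of the glucose transporter Glut1 (gene Slc2a1) in tumor cells does to gene expression. All 5 Control libraries are labelled male, Glut1KO replicates 1 to 3 female and Glut1KO replicates 4 and 5 male, so that among the females genotype and sex cannot be told apart. Column names also hold a number that Control replicates 1, 2 and 5 share, as do Control replicates 3 and 4, and Glut1KO replicates 4 and 5. The labels do not say what it marks, and p-values measure the spread between libraries, which may include several from one animal.

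Libraries held 35250991 to 49760462 counts in genes, of which the 76 genes took between 0.205% (Control replicate 4) and 0.249% (Control replicate 2). The targeted gene Slc2a1 stood at 118, 86.7, 92.6, 103 and 73.2 CPM (counts divided by a TMM-scaled library size) in Control and at 60.3, 42.5 and 34.6 in the female Glut1KO libraries. In the libraries labelled Glut1KO 4 and 5 it stood at 92.4 and 103, within the Control range, so the label is not reflected in the Slc2a1 counts there. The groups therefore overlapped (94.8 ± 16.9 against 66.5 ± 30.1, SD, n = 5 each; log2 fold change −0.62, SE 0.29, two-sided exact permutation p = 0.0952). Counts cover the whole gene, and the deleted part was not counted on its own. The main comparison and the genes named in it are for this reason also given against Control for the female and the male Glut1KO libraries apart. Markers of alveolar type 2 cells summed to 27866 to 85961 CPM over the Controls and markers of club cells to 2111 to 12092 CPM. Of the 15 leukocyte markers, Lyz1 varied most in CPM, at 13.5 to 665 CPM in Control, 54.8 to 644 in female and 908 and 925 in male Glut1KO libraries. The other 14, summed apart after the values were seen, stood at 33.7 to 38.5 CPM in Control, 58.1 to 70.3 in female and 57.1 and 40.8 in male Glut1KO libraries, every Glut1KO sum being above every Control sum. Of these, 5 (Ptprc, which encodes CD45, Fcer1g, Laptm5, Tyrobp and Coro1a) were higher in every Glut1KO library than in every Control library, as were 0.798% of all genes tested. Among the 12 leukocyte markers that passed the filter on low counts, 10 were higher and 2 lower on average in Glut1KO. The part of the leukocyte markers in the results below was not tested. The 37 genes of the mitochondrial genome in the table hold 0 counts in all 10 libraries, so the ribosome's RNAs and the messages it translates were not measured.

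Of the 76 genes, 75 passed the filter on low counts. Mrpl53, a large subunit gene on chromosome 6, did not: it held 0 to 2 counts per library and 5 in all. Its whole span lies inside a longer protein-coding gene on the same strand, listed as Ccdc142, which held 206 to 471 counts per library; reads that fall in both cannot be assigned to either. The lowest count of a tested gene in any library was 160 and the highest 4871. In GENCODE, 40 of the 76 genes overlap another gene and 25 overlap a protein-coding one, 22 of these on the opposite strand. Libraries were made with a kit that keeps strand, but whether counting used it is not given in the sources used here, so reads in such overlaps may not all belong to the gene named.

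Mitochondrial ribosomal protein genes were expressed at a moderate level. Their mean over the 10 libraries ran from 5.87 (Mrps36) to 80.3 CPM with a median of 28.0 CPM, against a median of 21.2 CPM over all 15922 genes tested. Per kilobase of the principal transcript, the 74 genes with a length had a median of 19.2 CPM per kb, compared with 7.91 over all genes tested and 206 for the genes of the cytosolic ribosome. Genes named Mrpl had a median of 20.7 and those named Mrps 15.6 CPM per kb. Per length, Mrps21 was highest at 85.4 CPM per kb, followed by Mrpl52 at 64.8, Mrpl24 at 59.97 and Mrpl14 at 49.6. Mrps26 was lowest at 3.87, below Mrps25 at 5.01, Mrpl17 at 5.09 and Mrpl48 at 5.35. Proteins of this ribosome are thought to stand in equal number in each particle, apart from the stalk protein Mrpl12. Transcripts per length spread 22.1-fold, but this spread depends on the annotated lengths used as divisor. In the order named, the 4 highest genes have lengths of 488, 418, 1339 and 645 bases and the 4 lowest of 4278, 6073, 7300 and 4285. Whether transcripts of these lengths are the ones expressed here was not tested, so the spread cannot be set against the protein numbers.

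The genes also varied little from tumor to tumor. The median coefficient of variation was 11.7% over the Control libraries and 14.1% over the Glut1KO libraries, against 18.2% and 20.4% for the 8083 genes within the same range of mean CPM. Only 5 of 75 genes exceeded 20% in Control, and 18 did in Glut1KO. Summed over the tested genes, the level was 2185 ± 106 CPM in Control (2064 to 2297) and 2202 ± 160 CPM in Glut1KO (1987 to 2404; SD, n = 5 each). Within Glut1KO the sum was 2187, 1987 and 2130 CPM in the female libraries and 2304 and 2404 CPM in the male ones. On this TMM scale the latter pair stood above every other library and Glut1KO replicate 2 below every other one. By share of total counts the order differed, with Control replicate 2 highest (0.249%) and Control replicate 4 lowest (0.205%), and Glut1KO replicates 5 and 4 at 0.238% and 0.213%. Extremes were also counted on the TMM scale. Glut1KO replicate 5 held the highest value of the 10 libraries for 16 genes (21.3%, against 10.7% of all genes tested), and Glut1KO replicate 2 the lowest for 18 genes (24.0%, against 12.5%).

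**Figure D1:**
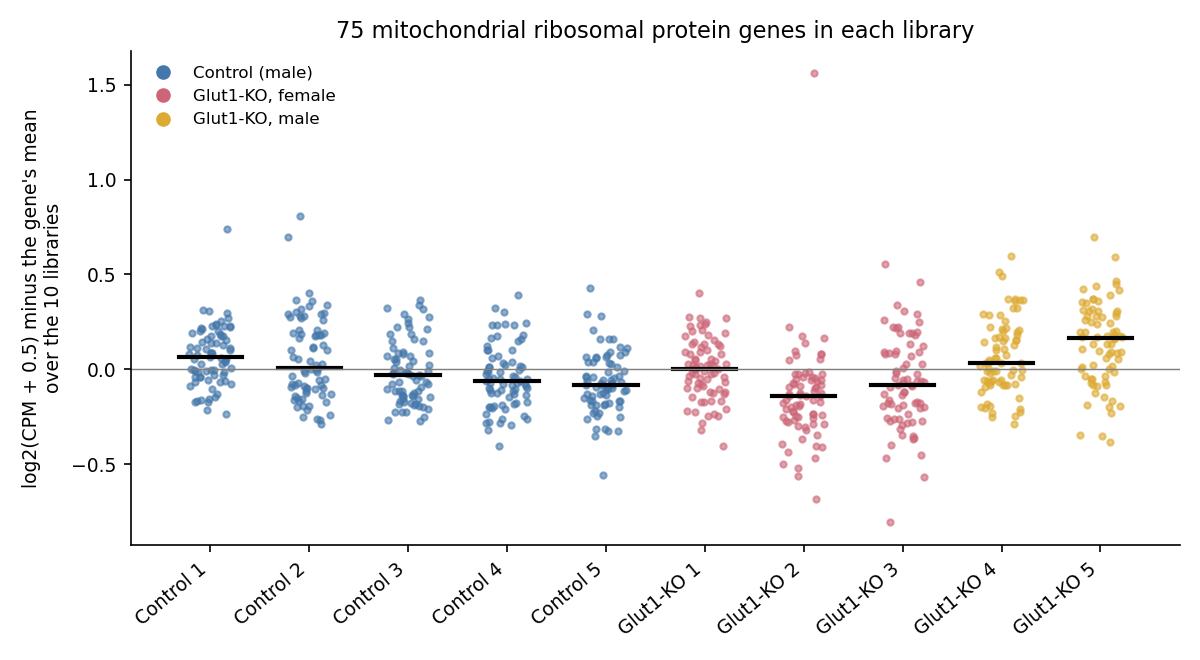
Each point is 1 of the 75 tested genes in 1 library, placed on the vertical axis by its log2(CPM + 0.5) minus its mean over the 10 libraries; black bars are medians, and colours separate Control, female Glut1KO and male Glut1KO libraries. The median is lowest in Glut1KO replicate 2 (−0.14) and highest in Glut1KO replicate 5 (0.16), and the single point far above the rest in Glut1KO replicate 2 is Mrps33.

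Between genotypes with both sexes pooled, the genes as a group differed little. In the limma fit of 5 Glut1KO against 5 Control libraries, 0 of 75 genes passed an adjusted p of 0.05, and neither did any gene of the table (0% of 15922). edgeR's quasi-likelihood test likewise called 0 of them, and DESeq2 called 1, Mrps27, where it called 1.33% of all genes. At an unadjusted p under 0.05, 0 genes were higher (3.66% of all genes) and 4 were lower (5.33%, against 4.02% of all genes). The split depended on the setting: DESeq2 gave 5 higher and 4 lower, leaving out Glut1KO replicate 2 gave 4 higher and 2 lower, and a covariate for sex gave 8 higher and 1 lower. The fold change was above 0 for 38 genes (50.7%, against 49.3% of all genes) and below 0 for 37, with a median of 0.01 on the log2 scale, against −0.0049 over all genes. With sex as a covariate, or with male libraries only, 55 were higher and 20 lower, with a median of 0.12. In the pooled fit the 95% interval lay within a 1.5-fold change in either direction for 68 of 75 genes and within a 2-fold change for 73. That fit averages female and male libraries. Taken apart, 54 genes were within 1.5-fold for the female and 40 for the male libraries against Control, and 73 and 74 within 2-fold.

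**Figure D2:**
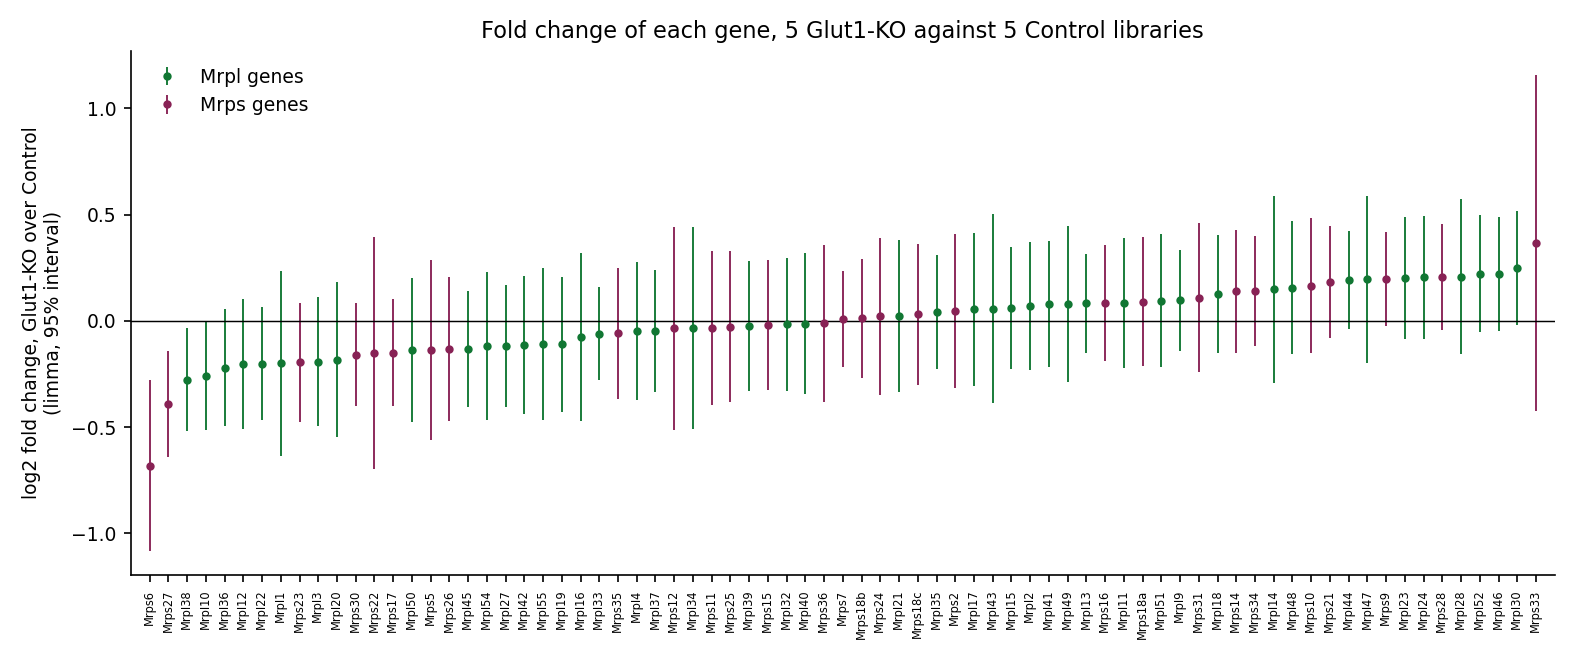
Log2 fold change of Glut1KO over Control for each of the 75 genes, in rising order along the horizontal axis, with the 95% interval of the limma fit; green marks genes named Mrpl and purple those named Mrps. Most intervals cross 0; Mrps6 lies lowest, at −0.68, and Mrps33, highest, has the widest interval, with 1 library far above the others.

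The genes with the smallest p were lower in Glut1KO. Mrps6, a small subunit protein with a bacterial counterpart, stood at 32.4, 21.8, 20.8, 25.4 and 22.3 CPM in Control and at 14.4, 15.7, 10.8, 19.7 and 16.8 CPM in Glut1KO. Every Glut1KO library was below every Control library, with a log2 fold change of −0.68 (SE 0.18, adjusted p = 0.411 in limma; −0.84 for the female and −0.42 for the male libraries). Mrps27, a pentatricopeptide repeat protein of the small subunit, stood at 28.8, 29.3, 32.6, 29.7 and 24.6 CPM in Control and at 24.2, 22.1, 22.3, 22.2 and 19.7 CPM in Glut1KO. Its groups did not overlap either, with both male libraries among the lower values (log2 fold change −0.39, SE 0.11, adjusted p = 0.436 in limma and 0.0417 in DESeq2; −0.34 for the female and −0.47 for the male libraries). These were the 2 genes without overlap, both lower (2.67%, against 1.06% of all genes), and 0 were higher without overlap (0.798% of all genes).

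Mrps6 does not stand alone on its locus. It lies at chr16:92058270-92112227 on the plus strand (GRCm38), and the span of Slc5a3, a sodium-coupled inositol transporter, lies at chr16:92058322-92087473 inside it on the same strand. Slc5a3 was at 63.7, 50.3, 45.3, 60.7 and 49.9 CPM in Control and at 26.6, 40.01, 27.8, 27.8 and 32.9 CPM in Glut1KO. It too was lower in every Glut1KO library (log2 fold change −0.80, SE 0.15, adjusted p = 0.23 in limma and 0.000997 in DESeq2; −0.79 for the female and −0.81 for the male libraries). Reads of the shared start cannot be told apart, and how far the value of Mrps6 rests on them was not tested.

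The remaining genes chosen for their small p differed by less. Mrpl38, a protein found only in mitochondrial ribosomes, was at 53.8 ± 6.27 CPM in Control and 44.1 ± 3.06 CPM in Glut1KO (log2 fold change −0.28, SE 0.11, adjusted p = 0.61 in limma). Mrpl10, at the base of the stalk that binds translation factors, was at 54.6 ± 6.36 and 45.4 ± 4.21 CPM (−0.26, SE 0.12). Mrpl36, whose gene overlaps that of the complex I subunit Ndufs6 on the opposite strand, was at 16.5 ± 1.82 and 14.2 ± 0.896 CPM (−0.22, SE 0.12), while Ndufs6 itself had a log2 fold change of 0.01 (−0.03 for the female and 0.08 for the male libraries). Mrpl22, which lines the exit tunnel, was at 17.0 ± 1.79 and 14.7 ± 0.662 CPM. In the other direction, Mrpl30 stood at 35.2 ± 2.85 CPM in Control and 42.0 ± 6.33 in Glut1KO (0.25, SE 0.12), with its highest values, 43.4 and 52.5 CPM, in the male Glut1KO libraries. Mrps9 had a log2 fold change of 0.20, Mrpl44, a relative of the nuclease RNase III, of 0.19, Mrpl46 of 0.22, Mrps28 of 0.21 and Mrpl52 of 0.22. Adjusted p-values of these 5 were 0.683 to 0.718 in limma, and all groups overlapped. Taken apart, female and male libraries gave −0.27 and −0.29 for Mrpl38, −0.30 and −0.20 for Mrpl10, −0.22 and −0.22 for Mrpl36 and −0.18 and −0.23 for Mrpl22. They gave 0.12 and 0.45 for Mrpl30, 0.18 and 0.23 for Mrps9, 0.19 and 0.19 for Mrpl44, 0.16 and 0.32 for Mrpl46, 0.20 and 0.21 for Mrps28 and 0.17 and 0.31 for Mrpl52. These genes were picked in the pooled comparison, so their shared signs follow from the choice.

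Between Glut1KO and Control, genes at the functional centres of the ribosome did not pass the limma test either. In the stalk, Mrpl12 was at 50.2 ± 4.13 CPM in Control and 44.1 ± 8.21 in Glut1KO (log2 fold change −0.20, SE 0.14), and Mrpl11 at 23.1 ± 3.10 and 24.7 ± 3.48 CPM (0.09, SE 0.14). Mrpl3, near the peptidyl transferase centre, was at 28.7 ± 1.73 and 25.6 ± 4.91 CPM (−0.19, SE 0.14). At the exit tunnel, Mrpl23 had a log2 fold change of 0.20 (SE 0.13) and Mrpl45, which tethers the ribosome to the inner membrane, one of −0.13 (SE 0.12). Mrps12 of the decoding centre was at 16.2 ± 1.93 and 16.4 ± 4.96 CPM. The paralogues Mrps18a, Mrps18b and Mrps18c, which share a bacterial ancestor, had log2 fold changes of 0.09, 0.01 and 0.03 (SE 0.14, 0.13 and 0.15). Here the female and male libraries differed in sign for several genes, with −0.34 and 0.01 for Mrpl12, −0.05 and 0.29 for Mrpl11, −0.38 and 0.11 for Mrpl3 and −0.31 and 0.41 for Mrps12. The values were 0.08 and 0.39 for Mrpl23, −0.17 and −0.08 for Mrpl45, 0.15 and −0.01 for Mrps18a, 0.01 and 0.01 for Mrps18b, and −0.03 and 0.13 for Mrps18c. None of these passed in limma, whereas DESeq2 called Mrpl3 lower in the female libraries than in Control (adjusted p = 0.00531). DESeq2 also called Mrpl3 and Mrps12 lower in female than in male Glut1KO libraries (adjusted p = 0.00244 and 0.0411).

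Within Glut1KO, most of the genes were lower in the female than in the male libraries. In a fit with 3 groups, the female libraries were below the male ones for 57 of 75 genes and above for 18 (24%, against 51% of all genes), with a median log2 difference of −0.16, against 0.01 over all genes. Against Control, the median was −0.06 for the female libraries (43 genes lower and 32, or 42.7%, higher, against 49.2% of all genes) and 0.12 for the male libraries (55 genes, or 73.3%, higher, against 48.9% of all genes). In each of these comparisons 0 of 75 genes passed an adjusted p of 0.05 in limma, whereas 0.0502% (female against male), 0.0691% (female against Control) and 0.0188% (male against Control) of all genes did. At an unadjusted p under 0.05, 15 genes were lower in the female than in the male libraries (20% of those tested, against 9.89% of all genes) and 0 were higher (8.68% of all genes). Against Control, 8 genes were lower in the female libraries (10.7%, against 6.97% of all genes) and 0 higher (7.67% of all genes), while in the male libraries 8 were higher (10.7%, against 6.19%) and 1 was lower (1.33%, against 4.87%). These counts rest on few libraries and on the scaling: the 15 became 9 without Glut1KO replicate 2 or 3 and 9 with library totals, and with library totals the 8 lower genes in female libraries became 4. Without Glut1KO replicate 5 the 15 became 8, in a fit where the lone male library is assumed to vary like the other groups. The median of −0.16 became −0.089 without Glut1KO replicate 2 and −0.098 without Glut1KO replicate 5. Against Control, the female median became −0.12 without Glut1KO replicate 1 and the male median 0.077 without Glut1KO replicate 5. For 23 genes all 3 female libraries lay below both male ones (30.7%, against 20.3% of all genes), and for 4 genes they lay above (5.33%, against 20.6%). When counts were scaled to library totals, the median over all genes moved from 0.01 to 0.11 and that of the ribosomal genes from −0.16 to −0.07, 42 genes then being lower and 33 higher. Relative to the median of all genes the difference was −0.17 with TMM and −0.18 with library totals, and 60 of 75 genes lay below that median in each.

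The genes with the smallest p in this comparison are given by library. Mrps25 lies at chr6:92169525-92184033 on the minus strand (GRCm38), overlaps Nr2c2 on the opposite strand and encodes a protein specific to mitochondrial ribosomes. It stood at 26.7, 25.3 and 23.5 CPM in the female Glut1KO libraries, at 38.7 and 38.7 CPM in the male ones and at 31.9, 32.7, 28.5, 30.0 and 28.4 CPM in Control. The Controls lay between the other 2 groups without overlap (female against male log2 difference −0.62, SE 0.13, adjusted p = 0.109 in limma). The values of Mrpl51 were 30.2, 31.7 and 32.2 CPM in female and 45.1 and 44.7 CPM in male Glut1KO libraries, with Control between 30.6 and 36.3 CPM (−0.52, SE 0.13, adjusted p = 0.12). Here the male libraries alone stood apart. Mrps22, another protein without a bacterial counterpart, was at 10.2, 8.04 and 8.74 CPM against 18.6 and 15.8 CPM, and Control spanned 9.93 to 15.01 CPM (−0.93, SE 0.23, adjusted p = 0.122). Mrpl17, Mrpl49 and Mrpl3 followed, with log2 differences of −0.59, −0.60 and −0.49 (adjusted p = 0.126, 0.126 and 0.133). For Mrpl3 the female libraries, at 21.5, 22.4 and 22.1 CPM, lay below every Control (26.1 to 30.4 CPM). The male ones, at 31.0 and 30.9 CPM, lay just above every Control. DESeq2 called these 6 genes, Mrpl43 and Mrps12 lower in the female libraries (8 of 75 genes, where it called 4.36% of all genes lower), while limma and edgeR's quasi-likelihood test called 0.

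**Figure D3:**
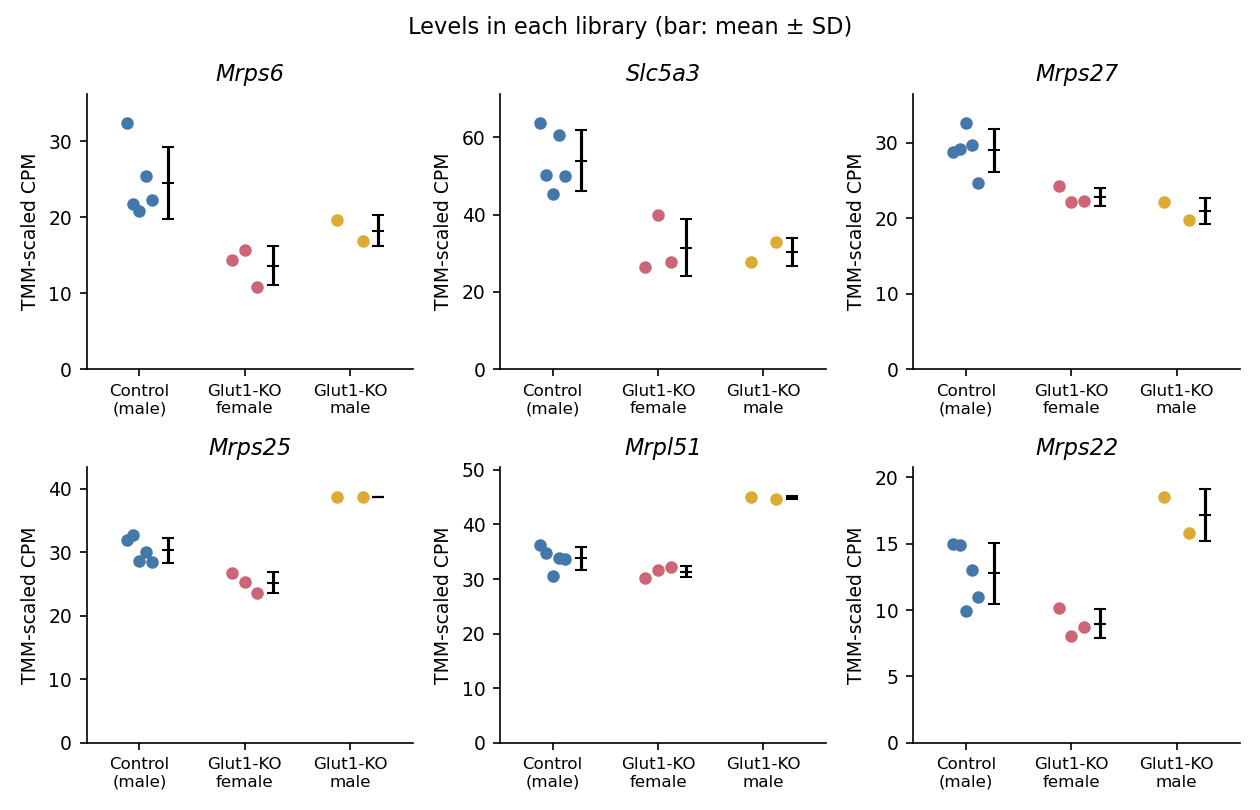
TMM-scaled CPM of 5 mitochondrial ribosomal protein genes and Slc5a3 in each library (points), with the mean ± SD of each group beside them (n = 5, 3 and 2); every vertical axis starts at 0. Mrps6, Slc5a3 and Mrps27 are lower in both Glut1KO groups than in Control, whereas Mrps25, Mrpl51 and Mrps22 are higher in the male than in the female Glut1KO libraries.

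The same split was wider in the cytosolic ribosome. Over its 83 tested protein genes, the median log2 difference was −0.43 between female and male Glut1KO libraries, with 74 genes lower. At an unadjusted p under 0.05 in limma, 30 were lower (9.89% of all genes tested) and 1 was higher (8.68%). Against Control, the median was 0.41 in the male libraries (77 genes higher) and −0.02 in the female ones (34 genes higher). With both sexes pooled, 66 genes (79.5%, against 49.3% of all genes) were higher in Glut1KO. Some marker sums also separated female from male Glut1KO libraries, in either direction. Dissociation stress markers summed to 6332 to 7020 CPM in female against 4369 to 4827 in male libraries, and proliferation markers to 509 to 574 against 396 to 486. Alveolar type 1 markers summed to 2218 to 2824 against 1423 to 1919, and erythroid markers to 189 to 232 against 407 to 751. Sums of club cell, alveolar type 2, ciliated, endothelial and fibroblast markers overlapped. Of all genes tested, 20.3% lay lower in all 3 female than in both male libraries, and 20.6% lay higher. Slc2a1 and Lyz1 differed as given above, as did the other 14 leukocyte markers, in the opposite direction to Lyz1 (58.1 to 70.3 against 40.8 and 57.1 CPM). The stress sums of the male libraries were also below every Control (6541 to 8816 CPM). Between Glut1KO and Control, 15 of 16 stress, 11 of 13 proliferation and 9 of 9 ciliated cell markers were lower on average, and 10 of 10 endothelial markers higher. The proliferation tally leans on Control replicate 2, whose sum was 868 CPM. The other Controls summed to 449 to 498 CPM, below every female Glut1KO library. Ciliated markers summed to 653 CPM in Control replicate 5 and 340 to 441 in the other Controls, against 218 to 371 in Glut1KO. Endothelial sums overlapped, at 120 to 460 CPM in Control and 185 to 608 in Glut1KO. The part of these in the ribosomal genes was not tested, and sex, the shared number in the names of both male libraries and the Slc2a1 level cannot be told apart.

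**Figure D4:**
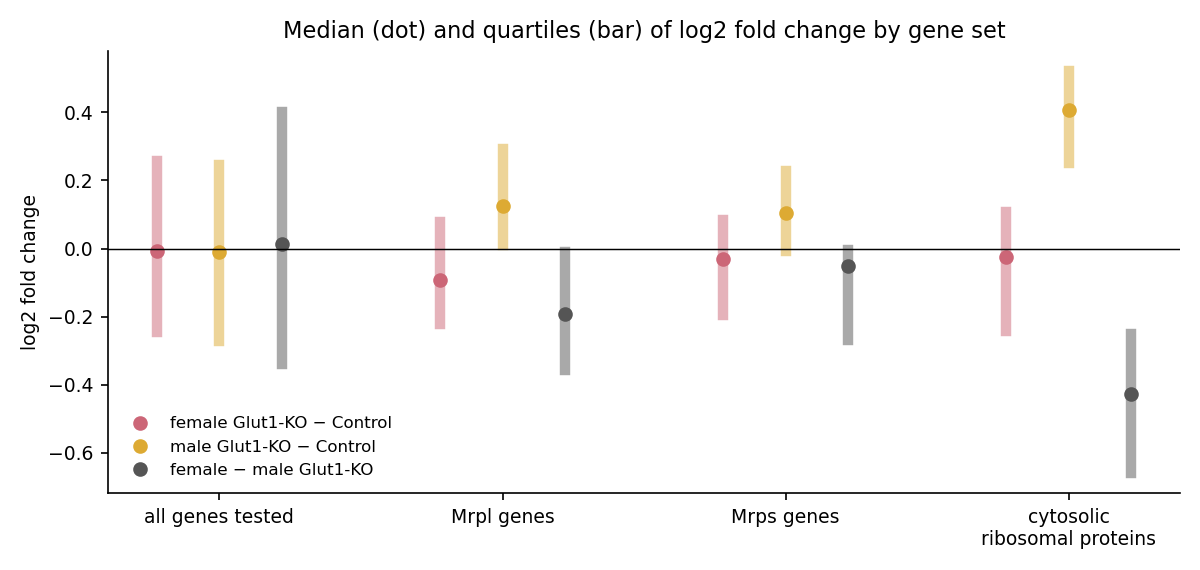
Median (dot) and quartiles (bar) of the log2 fold change for all genes tested, Mrpl genes, Mrps genes and genes of the cytosolic ribosome in 3 comparisons, the Control libraries being shared by the first 2. For all genes the medians lie close to 0, while for the ribosomal sets they lie above 0 in male and below 0 in female Glut1KO libraries, with −0.43 for the cytosolic ribosome between female and male.

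Genes that serve the mitochondrial ribosome without bearing its name gave 0 calls between Glut1KO and Control in limma. Of 6 subunits with other symbols, 3 were higher and 3 lower on average (median −0.01), and Dap3, a small subunit protein also known from cell death, was at 69.5 ± 1.92 CPM in Control and 78.5 ± 8.46 in Glut1KO (log2 fold change 0.14 for the female and 0.22 for the male libraries). Of 27 tested genes for ribosome assembly and rRNA, 12 were higher and 15 lower (median −0.06), the smallest p being that of the RNA helicase Dhx30 (log2 fold change −0.27, SE 0.14; −0.42 for the female and −0.05 for the male libraries). Of 15 translation factors, 6 were higher and 9 lower (median −0.05), led by the elongation factor Tsfm (−0.30, SE 0.17; −0.40 for the female and −0.15 for the male libraries). Of 19 mitochondrial aminoacyl-tRNA synthetases, 9 were higher and 10 lower. Among them Iars2, which charges the isoleucine tRNA, was at 91.5 ± 5.41 CPM in Control and 116 ± 11.1 in Glut1KO, with 1 Glut1KO library inside the Control range (0.34, SE 0.10, adjusted p = 0.436 in limma and 0.0472 in DESeq2; 0.28 for the female and 0.43 for the male libraries). Of 21 genes for transcription and RNA stability, 5 were higher and 16 lower (median −0.12), with Tbrg4, which stabilises mitochondrial messages, at −0.29 (SE 0.13; −0.38 for the female and −0.15 for the male libraries). Of 12 regulators of mitochondrial biogenesis, 9 were higher and 3 lower (median 0.12). Myc, a transcription factor that drives both ribosome sets in many cells, was at 37.7, 36.2 and 33.8 CPM in the female Glut1KO libraries, below every Control (48.5 to 80.3 CPM), and at 55.3 and 71.1 CPM in the male ones, inside the Control range (−0.53 over both, SE 0.22, adjusted p = 0.616 in limma). DESeq2 called Myc lower in the female libraries than in Control (−0.87, adjusted p = 0.000452) and than in the male ones (−0.82, adjusted p = 0.0119), whereas limma did not (adjusted p = 0.117 and 0.13). Between female and male Glut1KO libraries, the 6 subunits with other symbols had a median of −0.23 (5 lower), assembly and rRNA genes one of −0.01, translation factors one of 0.19 (10 of 15 higher), aminoacyl-tRNA synthetases one of 0.12 (11 of 19 higher), transcription and RNA stability genes one of −0.01 and biogenesis regulators one of 0.02, again with 0 calls in limma. In DESeq2, Polg2 (0.95), Tfb1m (0.93) and Oxa1l (0.59) were called higher in the female libraries, and Esrra (−0.76) and Myc (−0.82) lower. These were 5 calls among lists of 6, 27, 15, 19, 21 and 12 tested genes, where DESeq2 called 7.84% of all genes in either direction. The medians of the last 5 lists lay between −0.01 and 0.19, against −0.16 for the ribosomal protein genes.

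Promoters of nuclear genes for mitochondrial proteins often hold sites of the factors NRF1, GABPA (an ETS factor) and YY1. RefSeq windows of 300 bases, from 250 before to 50 after a start (GRCm38.p6), were at hand for 67 of the 76 genes (73 windows) and were searched on both strands. The ETS motif CCGGAAG was in 32.9% of these windows, against 15.6% of those of the other genes tested and 8.86% of all windows. The YY1 motif AAGATGGC was in 16.4%, against 3.90% and 2.75%, and the NRF1 core site GCATGCGC in 11.0%, against 4.57% and 2.71%. The E-box CACGTG was in 9.59% (9.39% and 7.15%) and the TATA box TATAAA in 6.85% (7.89% and 13.6%). In all, 36 genes held an ETS, YY1 or NRF1 core site motif. A match is a string of letters, and no binding was measured. Genes with and without the ETS motif had median log2 fold changes of 0.02 and −0.01 between Glut1KO and Control, and of −0.14 and −0.11 between female and male Glut1KO libraries. For the YY1 motif (12 genes with it) these were −0.02 and 0.03, and −0.15 and −0.14. For the NRF1 core site (8 genes with it) they were −0.02 and 0.02, and −0.04 and −0.17.

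Stretches upstream of 6 of these genes, outside annotated exons, are shown to place the motifs in genes of the comparisons above: the 2 genes without overlap between genotypes, 2 lower genes with an NRF1 core site, 1 gene among those with the highest level per length and 1 that split the Glut1KO libraries. They are from RefSeq (GRCm38.p6), written 5′ to 3′ on the strand of the gene. Capitals mark the ETS motif (CCGGAAG, or CTTCCGG where it lies on the other strand) and the NRF1 core site (GCATGCGC, or GCGCATGC on the other strand). The Mrps6 stretch holds neither.
Mrps6, chr16:92058150-92058269, plus strand: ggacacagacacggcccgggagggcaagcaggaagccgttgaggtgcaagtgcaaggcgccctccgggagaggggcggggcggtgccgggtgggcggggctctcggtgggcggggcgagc
Mrps27, chr13:99344706-99344785, plus strand: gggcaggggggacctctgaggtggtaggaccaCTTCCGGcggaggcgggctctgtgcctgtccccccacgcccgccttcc
Mrpl10, chr11:97041440-97041559, plus strand: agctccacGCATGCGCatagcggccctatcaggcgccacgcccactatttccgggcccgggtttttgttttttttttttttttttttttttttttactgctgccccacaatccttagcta
Mrpl22, chr11:58171541-58171660, plus strand: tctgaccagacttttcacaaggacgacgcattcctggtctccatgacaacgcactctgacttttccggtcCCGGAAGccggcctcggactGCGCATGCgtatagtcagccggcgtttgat
Mrpl52, chr14:54426789-54426908, plus strand: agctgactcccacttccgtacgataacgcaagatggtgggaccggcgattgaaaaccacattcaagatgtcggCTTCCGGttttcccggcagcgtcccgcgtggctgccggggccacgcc
Mrps22, chr9:98601680-98601799, minus strand: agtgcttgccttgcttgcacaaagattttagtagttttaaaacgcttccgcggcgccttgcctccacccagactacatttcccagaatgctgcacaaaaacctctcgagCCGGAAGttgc

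Mrps27 and Mrpl22, both lower on average in Glut1KO, hold the ETS motif, as does Mrpl52, which was higher on average. All were among the genes chosen for the smallest p in each direction, so both signs follow from the choice. A part of the motif in these differences was not tested.

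**Figure D5:**
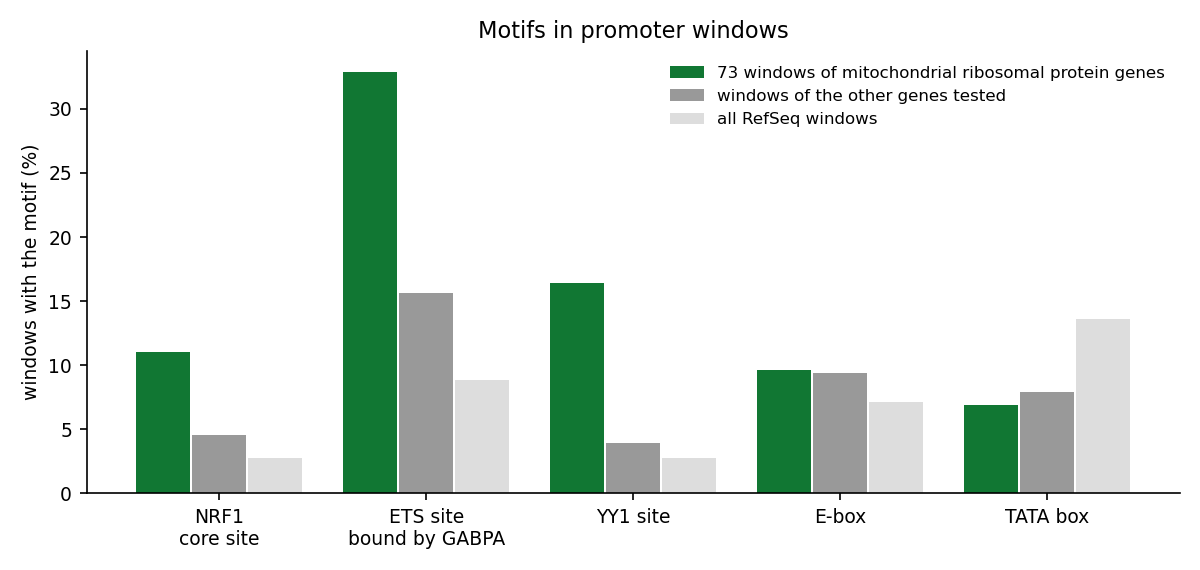
Share of RefSeq promoter windows (vertical axis, %) that hold each motif at least once, for the 73 windows of mitochondrial ribosomal protein genes, the windows of the other genes tested and all windows. The ETS, YY1 and NRF1 motifs are in a larger share of the ribosomal windows than of the others, while the E-box share is 9.59% against 9.39%.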

How the data were processed

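The authors deposited raw gene counts, one value per gene and library and not normalized. Per the labels, polyA RNA libraries were made with a stranded kit, converted with bcl2fastq 2.17, trimmed with cutadapt 1.4.2, aligned to mm10 with HISAT2 and counted with featureCounts 1.4.4. Each column of the joint table was matched to a sample by the name of that sample's own count file, and all 10 single files held the same counts. Library depth was 35250991 to 49760462 counts.

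From these counts, genes were filtered with edgeR's filterByExpr (4.0.16; minimum count 10, minimum total 15), scaled by TMM and tested with voom and limma (3.58.1, R 4.3.3) on group, a model taken from the study's methods, with Benjamini-Hochberg adjustment over 15922 genes and a threshold of 0.05. The study kept genes with an average of at least 20 TPM, a filter used here only as an alternative (7435 genes, 58 of the 75). A second fit used 3 groups: Control, female Glut1KO and male Glut1KO. CPM levels are TMM-scaled, and lengths are those of principal transcripts in GENCODE M21. The code was tested on simulated data. Alternatives were edgeR's quasi-likelihood test, DESeq2 (1.42.0), library totals, other filters, sex as a covariate, male libraries only, blocks, and leaving out each library.

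Named genes were those with the 6 smallest p-values in each direction, the 4 highest and lowest per length, fixed roles, the 6 smallest p-values between female and male Glut1KO libraries, and those without overlap. Genes outside these rules (Mrps33, Mrps5, Mrpl43, Slc5a3 and overlapping genes) were chosen after their values were seen. The gene set, lists and tests were chosen with earlier results of these data known.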

Additional observations from a re-analysis of the deposited data

Results flagged for a closer look

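In 152 groups of 5 libraries (each of the 75 genes and their summed level, in Control and in Glut1KO), 7 held a library whose gap to its nearest neighbour exceeded 0.71 of the group's range, where chance flags about 1 in 20, or 7.6. The widest was Mrps33, a gene at 33.0 CPM in Glut1KO replicate 2 against 8.47 to 10.8 CPM in the other Glut1KO libraries. Control replicate 2 accounted for 3: Mrps5 at 76.0 CPM (others 35.5 to 43.0), Mrpl28 at 59.4 CPM (39.4 to 44.2) and Mrpl1 at 42.5 CPM (22.5 to 27.7). Among the Controls that library also had the highest sums of proliferation (868 CPM) and fibroblast markers (372 CPM) and the lowest of alveolar type 2 (27866 CPM), club cell (2111 CPM), endothelial (120 CPM), erythroid (237 CPM) and dissociation stress markers (6541 CPM), whose part in these values was not tested. Mrpl39 stood at 48.4 CPM in Control replicate 3 (others 37.1 to 39.8) and Mrps11 at 14.6 CPM in Control replicate 1 (12.3 to 12.7). Mrpl41 was low in Control replicate 4, at 11.6 CPM (14.0 to 14.8).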

How the results depend on the processing

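With limma and edgeR's quasi-likelihood test, 0 of the 75 genes were called in any comparison under the alternatives run, including each library left out (0 to 0). DESeq2 called 1 of them between Glut1KO and Control (Mrps27; 1.33% of all genes were called), 2 between male Glut1KO and Control (Mrpl51 and Mrpl30; 2.37%), 2 between female Glut1KO and Control (Mrps6 and Mrpl3; 4.46%) and 8 between female and male Glut1KO (7.84%). The other lists held 6, 27, 15, 19, 21 and 12 tested genes. Of these it called 1 gene between Glut1KO and Control (Iars2; 1.33% of all genes). Against Control it called 2 in the male (Iars2, Polg2; 2.37%) and 2 in the female libraries (Lars2, Myc; 4.46%). Between female and male it called 5 (Esrra, Myc, Oxa1l, Polg2, Tfb1m; 7.84%). The median log2 fold change between Glut1KO and Control moved from 0.01 to 0.12 with sex as a covariate and to 0.12 with male libraries only, and lay between −0.02 and 0.05 with each library left out. The Slc2a1 log2 fold change reversed to 0.061 with sex as a covariate and to 0.060 with male libraries only (−0.81 to −0.42 leaving out each library). Under those 2 settings Mrps25 reversed to 0.35 and 0.35, Mrps12 to 0.41 and 0.41, Mrps22 to 0.42 and 0.42, Mrpl3 to 0.11 and 0.11, Mrpl12 to 0.0052 and 0.0046, and Mrps18a to −0.0081 and −0.0086; female Glut1KO libraries then bear no weight on the genotype estimate. With edgeR's quasi-likelihood test and DESeq2, Mrps25 was at 0.014 and 0.018 and Mrps12 at 0.015 and 0.019; the cause was not tested. Leaving out each library, values of both signs were found for Mrpl17 (−0.033 to 0.16), Mrpl49 (−0.023 to 0.17), Mrps12 (−0.15 to 0.14), Mrps18b (−0.051 to 0.10), Mrps18c (−0.031 to 0.12) and Mrps25 (−0.12 to 0.061). Without a change of sign, Mrpl12 ranged from −0.28 to −0.11, Mrpl11 from 0.015 to 0.13 and Mrpl45 from −0.19 to −0.084. Mrps18a ranged from 0.039 to 0.18 and Dhx30 from −0.35 to −0.18. Genes at an unadjusted p under 0.05 between Glut1KO and Control numbered 4, or 9 with male libraries only or with DESeq2, and 2 without Control replicate 3 or 4 or Glut1KO replicate 3 or 4. Between female Glut1KO and Control their number went from 8 to 5 with no filter, to 14 without Glut1KO replicate 1, to 2 without Glut1KO replicate 2 or 3, and to 3, 5 and 4 without Control replicates 1, 3 and 4; between male Glut1KO and Control it went from 9 to 5 without Glut1KO replicate 5, where 1 male library is left and its spread is taken from the other groups. Same-numbered libraries did not deviate together (correlations 0.04, −0.09, 0.03, 0.20 and −0.13, only the fourth being the best match of its number), so the numbers do not pair the samples; with the replicate number as a block, 0 genes were called, 2 had an unadjusted p under 0.05 and the median was 0.0071. Letting libraries with the same number in their names correlate (0.07) gave 0 calls between Glut1KO and Control and was not run for female against male Glut1KO libraries. With 2 male Glut1KO libraries, differences between the sexes rest on little replication.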
